A study of Mus musculus with 6 samples.

Results

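The transcripts of 10 members of the Bcl2 family, which sets whether a cell survives or dies through its mitochondria, were followed across the 3 treatments of this experiment. The members are a list of named genes with no threshold on their values: the pro-survival genes Bcl2, Bcl2l1 and Mcl1, the BH3-only genes Bcl2l11, Bmf, Bbc3, Pmaip1 and Bad, and the effector genes Bax and Bak1. All 10 were measured and tested, out of 16514 genes with a named probe and 14236 genes tested. They had 18 probes, of which 17 were detected, meaning well above background on each array of 1 or more groups. The cells, from C57BL/6J mice, are labelled as primary Sertoli cells, the somatic cells that nurse the germ cells in the seminiferous tubule. All cultures, controls included, received insulin, transferrin and 5 ng/ml epidermal growth factor (EGF) at 34 °C. From day 5 they were given for 24 h vehicle, basic fibroblast growth factor (bFGF, 20 ng with no volume stated) or 10 µM PD0325901, a small-molecule inhibitor of MEK1 and MEK2, the kinases that activate ERK. Each group had 2 samples, each on its own 1-colour array. The labels do not say whether the samples of a group were separate cultures or animals, and the p-values therefore rest on a spread that may be technical.

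Bcl2 family proteins act at the outer mitochondrial membrane. Bax and Bak1 form the pores that release cytochrome c, Bcl2, Bcl2l1 (Bcl-xL) and Mcl1 hold them in check, and the BH3-only proteins bind the pro-survival proteins or act on the effectors directly. Growth factor signalling through ERK is known to act on this balance: ERK phosphorylates the BH3-only protein Bim, the product of Bcl2l11, which marks it for breakdown, and the ERK-activated kinase RSK phosphorylates Bad. FOXO transcription factors are known to activate Bcl2l11, Bbc3 and Bmf, and p53 to activate Bbc3, Pmaip1 and Bax. Arrays measure transcripts and show none of the protein modifications.

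A level below is the log2 signal relative to the array's 75th percentile, so that 0 lies at that percentile and 1 unit is a 2-fold step. Levels are compared between arrays for 1 gene, never between genes. Differences were tested with limma in 1 model over the 6 arrays, with Benjamini-Hochberg adjustment over all tested genes, and a gene was called at an adjusted p under 0.05. By that rule 53.4% of genes were called between PD0325901 and vehicle (24.1% higher, 29.3% lower), 19.9% between bFGF and vehicle (12.7% higher, 7.13% lower) and 62.1% between PD0325901 and bFGF (25.3% higher, 36.7% lower). Among the called genes the higher ones made up 45.2%, 64.1% and 40.8%. These splits depend on the scaling: with each array's median in place of its 75th percentile they were 58.9%, 25.8% and 65.6%, since that moved the median difference of all genes from -0.04 to 0.06, from 0.03 to -0.11 and from -0.08 to 0.16. Between 64.9% and 75.9% of probes were well above background, most on the bFGF arrays. No slide held arrays of more than 1 treatment, and an effect of the slide cannot be told apart from that of the treatment. Of 15 tested ERK-dependent genes, 13 fell under PD0325901, 1 rose and 1 did not pass, beside 29.3% of all genes lower. Among them Dusp6, the gene of an ERK phosphatase that ERK itself induces, was 67.2-fold lower. All 14 Sertoli cell markers were well above background on all arrays, but so were most markers of myoid, Leydig, germ, macrophage and fibroblast cells. In such mixed cultures fewer cells of a type and less RNA per cell cannot be told apart.

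PD0325901 against vehicle asked how the family responds to a block of MEK in the presence of EGF. Of the 10 members 6 rose and 2 fell, or 8 called, beside 53.4% of all genes. On the brightest detected probe of each gene the directions of the called members followed the roles. Of the 3 pro-survival genes 2 fell and none rose. Of the 5 BH3-only genes 4 rose and none fell, Bmf rising on only 1 of its 2 detected probes. Both effectors rose, Bak1 on 1 of its 2 probes. The median difference was -0.26 for the pro-survival genes, 0.74 for the BH3-only genes and 0.25 for the effectors, against -0.04 for all tested genes. Groups did not overlap for 9 of the 10 members, where 79.7% of all genes did not overlap either.

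**Figure D1:**
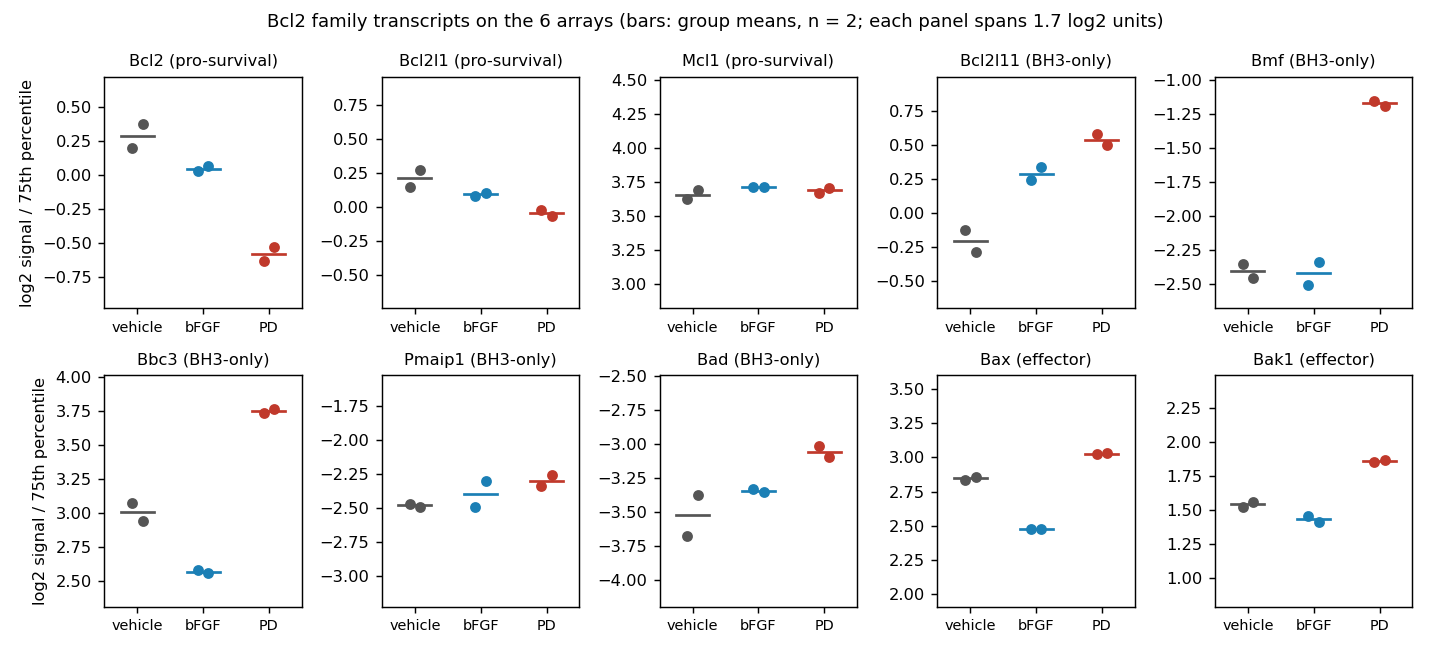
Level of each of the 10 genes on each of the 6 arrays, as log2 signal relative to the array's 75th percentile (vertical axis, each panel spanning the same range), by treatment, with PD standing for PD0325901. Points are arrays and bars are group means. Bmf and Bbc3 stand clear of the other groups under PD0325901, Bcl2 lies lowest there, Bbc3 and Bax lie lowest under bFGF, and Mcl1 is level across the groups.

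Bcl2, the founding pro-survival gene, lay at 0.20 and 0.37 on the vehicle arrays, at 0.03 and 0.07 with bFGF and at -0.63 and -0.53 with PD0325901. The inhibitor arrays were the lowest, with no overlap with either other group. Its mean under PD0325901 was lower by 1.82-fold, a log2 difference of -0.87 ± 0.08 (95% interval of the fold 1.58 to 2.10, limma adjusted p = 0.00145). Here and below ± gives the SE from limma, with 2 arrays a group. The spread behind it is pooled over the 3 groups and drawn toward that of other genes. The Bcl2 probe is printed in 10 spots on each array, and the SD between spots of 1 array was 0.025 to 0.082, well under the drop. A separate probe, designed to the other Bcl2 transcript (NM_177410 in place of NM_009741), fell by 0.82 ± 0.09.

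Bcl2l1, which encodes Bcl-xL, lay at 0.15 and 0.27 with vehicle, 0.08 and 0.11 with bFGF and -0.02 and -0.06 with PD0325901. The order of the groups was that of Bcl2, with smaller steps. It fell by 0.26 ± 0.06 (1.19-fold, limma adjusted p = 0.0201), and its other 2 probes fell by 0.59 ± 0.16 and 0.32 ± 0.09. The call was lost without PD0325901 replicate 1 (adjusted p = 0.0752) or replicate 2 (0.103), and with the array median (0.0843) or with normexp background correction (0.0531).

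Mcl1, the short-lived pro-survival protein's gene, was at 3.63 and 3.69 with vehicle, 3.71 and 3.72 with bFGF and 3.67 and 3.71 with PD0325901. The inhibitor and vehicle arrays overlapped. The difference was 0.03 ± 0.04 with a 95% interval of -0.09 to 0.15, so a transcript change of the size seen for Bcl2 lies outside that interval (limma adjusted p = 0.603). The other Mcl1 probe differed by -0.16 ± 0.08 (adjusted p = 0.167).

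Among the BH3-only members, Bmf had the largest difference. Bmf, whose protein is held at the cytoskeleton by dynein light chain, lay at -2.35 and -2.45 with vehicle, -2.50 and -2.33 with bFGF and -1.15 and -1.19 with PD0325901. Both inhibitor arrays stood more than 1 log2 unit above every other array. It rose by 1.23 ± 0.08 (2.34-fold, 95% interval 2.04 to 2.70, limma adjusted p = 5.50e-04), and 97.2% of tested genes had a lower signed difference. A dimmer Bmf probe did not follow it: at -4.50 and -3.91 with vehicle and -4.62 and -4.51 with PD0325901 it differed by -0.36 ± 0.20 (adjusted p = 0.197), and the mean of both probes rose by 0.43. A further Bmf probe was above background on only 1 of the 6 arrays. The rise thus rests on the brightest of the Bmf probes.

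Bcl2l11, which encodes Bim, lay at -0.13 and -0.28 with vehicle, 0.24 and 0.33 with bFGF and 0.58 and 0.50 with PD0325901. The 3 groups formed 3 separate steps with no overlap. Under the inhibitor it rose by 0.74 ± 0.08 (1.67-fold, 95% interval 1.46 to 1.93, limma adjusted p = 0.00204), and its second probe by 0.66 ± 0.06.

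Bbc3, which encodes the p53-induced protein Puma, gave processed signals of 12836 and 12446 with vehicle, 9136 and 8623 with bFGF and 20224 and 20138 with PD0325901. On the log2 scale these were 3.07 and 2.94, then 2.58 and 2.56, then 3.74 and 3.76, so that vehicle lay between the other groups. It rose by 0.74 ± 0.06 under the inhibitor (1.67-fold, 95% interval 1.51 to 1.86, limma adjusted p = 9.42e-04). Bbc3 has 1 probe.

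Bad, the BH3-only protein that growth factor kinases phosphorylate, was at -3.68 and -3.38 with vehicle, -3.33 and -3.36 with bFGF and -3.02 and -3.10 with PD0325901. The vehicle arrays lay further apart than those of the other groups. Its rise of 0.47 ± 0.11 (limma adjusted p = 0.0244) was lost without PD0325901 replicate 1 (adjusted p = 0.110) or replicate 2 (0.0775) and without either bFGF array (0.0562). Pmaip1, which encodes the Mcl1-binding protein Noxa, was at -2.47 and -2.49 with vehicle, -2.49 and -2.30 with bFGF and -2.34 and -2.26 with PD0325901. It differed by 0.18 ± 0.08, which did not pass (adjusted p = 0.116), although it passed with the array median (0.0286) and with normexp (0.0391).

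Of the pore-forming effectors, Bax was at 2.84 and 2.86 with vehicle, 2.48 and 2.47 with bFGF and 3.02 and 3.03 with PD0325901. Arrays of 1 group lay within a few hundredths of each other, and the groups were distinct. Bax rose by 0.18 ± 0.04 (1.13-fold, limma adjusted p = 0.0146), a small step, and the call was lost without PD0325901 replicate 1 (adjusted p = 0.0813) or replicate 2 (0.0899). Bak1 was at 1.52 and 1.56 with vehicle, 1.45 and 1.41 with bFGF and 1.85 and 1.86 with PD0325901, a rise of 0.32 ± 0.04 (1.25-fold, adjusted p = 0.00378). The dimmer Bak1 probe moved the other way, from -1.78 and -1.72 to -1.96 and -1.99, a fall of 0.22 ± 0.06 (limma adjusted p = 0.0447 over all probes). Averaged over both probes Bak1 differed by 0.05 (adjusted p = 0.381), so its direction depends on the probe.

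**Figure D2:**
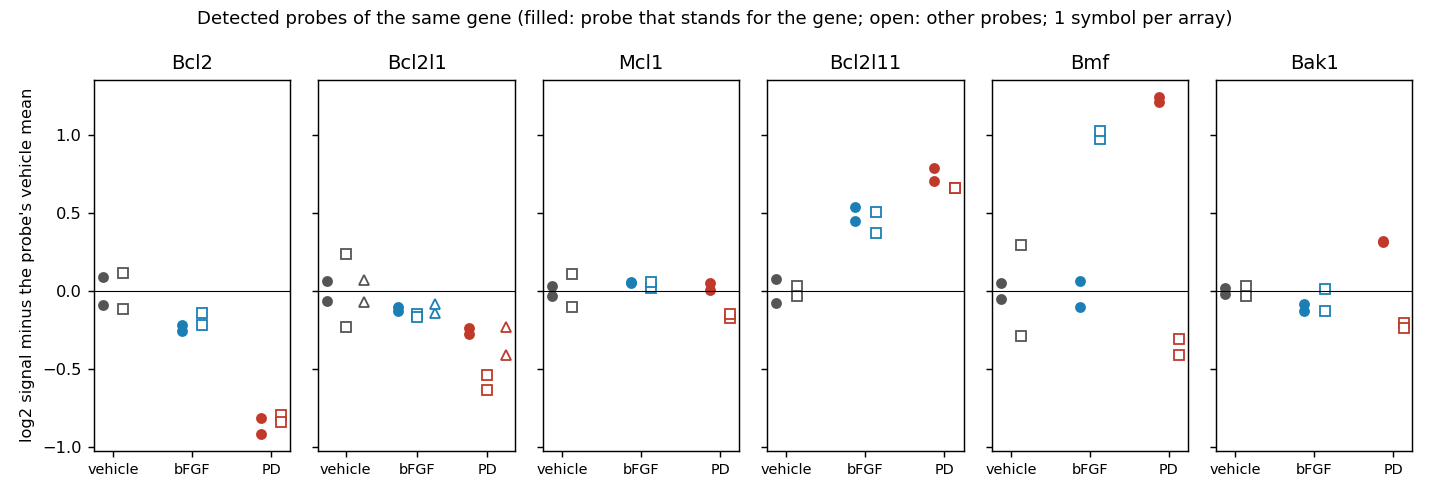
Every detected probe of the 6 genes that have more than 1, as log2 signal minus the probe's own mean on the vehicle arrays (vertical axis), by treatment, with PD standing for PD0325901. Filled points are the probe that stands for the gene and open symbols its other probes, 1 symbol per array. The probes of Bcl2, Bcl2l1 and Bcl2l11 move together, whereas those of Bmf and Bak1 part ways.

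Without PD0325901 replicate 1 or replicate 2 fewer of the 10 members were called, and fewer of all genes as well. Recounts of the gene lists below without an inhibitor array rest on the same fits. Bcl2, Bcl2l11, Bmf and Bbc3 were called with the same direction in each of 18 alternative settings, with ranges of -0.95 to -0.76, 0.67 to 0.85, 0.43 to 1.33 and 0.68 to 0.85. Settings that changed only the filter, the fit or the bFGF arrays left the differences of these genes as they were and bear only on the call. For Bmf the dimmer probe entered only where probes were averaged, which gave the 0.43, so the other settings could not show its disagreement. Array by array, the median BH3-only gene stood 0.73 and 0.70 above its vehicle mean on the inhibitor arrays, while the median pro-survival gene stood at -0.24 and -0.28 and the median effector at 0.25 and 0.25. On the vehicle arrays the same medians lay between -0.06 and 0.06. Those values mirror each other by construction, since each gene was set against the mean of those arrays. These medians describe genes chosen by name, and no test was made over them.

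Promoters of Bcl2l11, Bbc3 and Bmf, the BH3-only members with the largest rises, and of Bcl2, the member with the largest fall, are shown. FOXO and ERK-regulated factors are known to act on genes of this family. RefSeq windows of GRCm38.p6, from 250 bases before to 50 after a transcript start, matched 9 of the 10 members in 17 windows. Searched on both strands were TGTTTAC (forkhead core), CCGGAA (ETS core), TGACTCA (AP-1), TGACGTC (CRE) and GTGGGCG (EGR), words that share no position in these windows. The forkhead core occurred in 2 member windows, 1 of Bcl2l11 and 1 of Bbc3, against 3.65% of all 32851 windows. Capitals mark the words in 1 window each of Bcl2l11 (chr2:128125788-128126087, plus strand), Bbc3 (chr7:16310011-16310310, plus strand), Bmf (chr2:118549637-118549936, minus strand) and Bcl2 (chr1:106714241-106714540, minus strand), each written 5′ to 3′ on the gene's strand.
Bcl2l11: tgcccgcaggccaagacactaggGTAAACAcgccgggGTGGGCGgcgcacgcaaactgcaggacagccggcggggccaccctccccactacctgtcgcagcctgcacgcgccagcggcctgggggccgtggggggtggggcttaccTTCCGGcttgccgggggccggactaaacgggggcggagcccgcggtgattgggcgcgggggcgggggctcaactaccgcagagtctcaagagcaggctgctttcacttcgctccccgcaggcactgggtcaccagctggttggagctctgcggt
Bbc3: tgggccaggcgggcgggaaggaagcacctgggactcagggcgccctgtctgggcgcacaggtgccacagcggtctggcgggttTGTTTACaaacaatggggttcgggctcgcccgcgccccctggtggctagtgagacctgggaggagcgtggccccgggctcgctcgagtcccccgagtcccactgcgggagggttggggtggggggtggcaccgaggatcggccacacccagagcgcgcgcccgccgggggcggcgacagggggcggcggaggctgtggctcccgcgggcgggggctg
Bmf: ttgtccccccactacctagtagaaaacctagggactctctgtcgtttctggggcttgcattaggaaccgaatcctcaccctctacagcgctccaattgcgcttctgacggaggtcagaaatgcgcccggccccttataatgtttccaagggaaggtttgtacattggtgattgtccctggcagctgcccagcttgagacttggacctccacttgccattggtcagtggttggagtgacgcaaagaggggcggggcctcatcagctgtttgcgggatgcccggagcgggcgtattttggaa
Bcl2: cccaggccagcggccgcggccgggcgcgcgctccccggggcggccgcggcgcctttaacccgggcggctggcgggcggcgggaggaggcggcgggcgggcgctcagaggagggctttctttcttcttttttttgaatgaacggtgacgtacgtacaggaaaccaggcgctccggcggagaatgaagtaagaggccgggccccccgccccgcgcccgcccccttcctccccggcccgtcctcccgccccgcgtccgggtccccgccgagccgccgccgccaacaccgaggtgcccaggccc
In Bcl2l11 the forkhead core, as GTAAACA, starts 227 bases before the transcript start, an EGR word 213 bases and an ETS core, as TTCCGG, 104 bases before it. In Bbc3 the forkhead core starts 167 bases before the start. The Bmf and Bcl2 windows shown hold none of the 5 words, and neither do the other windows of Bcl2l11, Bbc3 and Bmf. For Bcl2l11 and Bbc3 the window shown is thus the only one with a match. The ETS core also occurred in 1 window each of Bcl2l1, Mcl1 and Bad (14.9% of all windows) and the EGR word in 1 of Bad (7.97%), while no member window held the AP-1 or CRE word (5.20% and 3.21%). A match is a description of the letters and was not tested as a binding site.

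bFGF against vehicle asked how the family responds to added growth factor. Of the 15 tested ERK-dependent genes 2 rose and 3 fell, beside 12.7% and 7.13% of all genes. The other 10 did not pass, and the list median was -0.08. Dusp6 differed by -0.10 ± 0.07 (limma adjusted p = 0.325). Of the 10 members 1 rose and 2 fell, or 3 called, beside 19.9% of all genes, and the called genes did not follow the roles. Bcl2l11 rose by 0.49 ± 0.08 (1.41-fold, limma adjusted p = 0.0225), the same direction as under the inhibitor, and its dimmer probe rose by 0.44. Bbc3 fell by 0.44 ± 0.06 (1.36-fold, adjusted p = 0.0170) and Bax fell by 0.37 ± 0.04 (1.29-fold, adjusted p = 0.0110), the opposite of their direction under the inhibitor. Groups did not overlap for 8 of the 10 members, against 67.5% of all genes. The comparisons share the vehicle arrays, so their directions are not independent.

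The other 7 members did not pass. Bcl2 differed by -0.24 ± 0.08 (95% interval -0.45 to -0.03, limma adjusted p = 0.0971), Bcl2l1 by -0.12 ± 0.06 (adjusted p = 0.203), Mcl1 by 0.06 ± 0.04 (0.398), Bad by 0.18 ± 0.11 (0.290), Pmaip1 by 0.08 ± 0.08 (0.478) and Bak1 by -0.11 ± 0.04 (0.129). Bmf, the member with the largest difference under the inhibitor, differed by -0.02 ± 0.08 (95% interval -0.22 to 0.18, adjusted p = 0.871), so a rise of the size seen under PD0325901 lies outside that interval for this probe. Its dimmer probe was at -3.23 and -3.18 with bFGF and rose by 1.0 (adjusted p = 0.0399 over all probes), again unlike the brightest one, and with both probes averaged Bmf rose by 0.49 and was called (adjusted p = 0.0362). No member was called without bFGF replicate 1 or without bFGF replicate 2, where Bcl2l11 had adjusted p values of 0.0741 and 0.115, Bbc3 of 0.0717 and 0.0965 and Bax of 0.0552 and 0.0719. Without either PD0325901 array, which only lends its spread to this comparison, Bax alone was called, with Bcl2l11 at 0.0561 and Bbc3 at 0.0511, and without vehicle replicate 2 Bcl2l11 was at 0.0512. With the array median 6 members were called, Bcl2, Bcl2l1 and Bak1 lower besides those 3, Bcl2 passed with the trended fit (0.0424), and with the replicate block Bcl2l11 did not pass (adjusted p = 0.0521).

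PD0325901 against bFGF set the inhibitor beside the growth factor. It uses no vehicle array, though it shares its arrays with the comparisons above. Of the 10 members 5 rose and 1 fell, or 6 called, beside 62.1% of all genes, so the share called was near the background. Bmf rose by 1.25 ± 0.08 (2.37-fold, limma adjusted p = 4.44e-04) and Bbc3 by 1.18 ± 0.06 (2.27-fold, adjusted p = 2.64e-04), where 97.5% and 97.2% of tested genes had a lower signed difference. Bax rose by 0.55 ± 0.04 (1.47-fold, adjusted p = 5.24e-04) and Bak1 by 0.43 ± 0.04 (adjusted p = 0.00138), whose other probe differed by -0.16 (0.0890 over all probes). Bcl2 fell by 0.63 ± 0.08 (1.54-fold, adjusted p = 0.00302). Bcl2l11 rose by 0.25 ± 0.08 (adjusted p = 0.0419), a call lost without any one of the bFGF or PD0325901 arrays (adjusted p from 0.0826 to 0.174) and with the replicate block (0.0691). Not called were Bad (0.29 ± 0.11, adjusted p = 0.0822), Bcl2l1 (-0.14 ± 0.06, 0.0937), Pmaip1 (0.10 ± 0.08, 0.321) and Mcl1 (-0.03 ± 0.04, 0.631). Without either vehicle array Bad (0.0129) and Bcl2l1 (0.0451) passed, and Bcl2l1 keeps its negative sign except with the array median. With the probes of a gene averaged, Bmf differed by -0.06 (adjusted p = 0.635), since its probes moved in opposite directions.

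**Figure D3:**
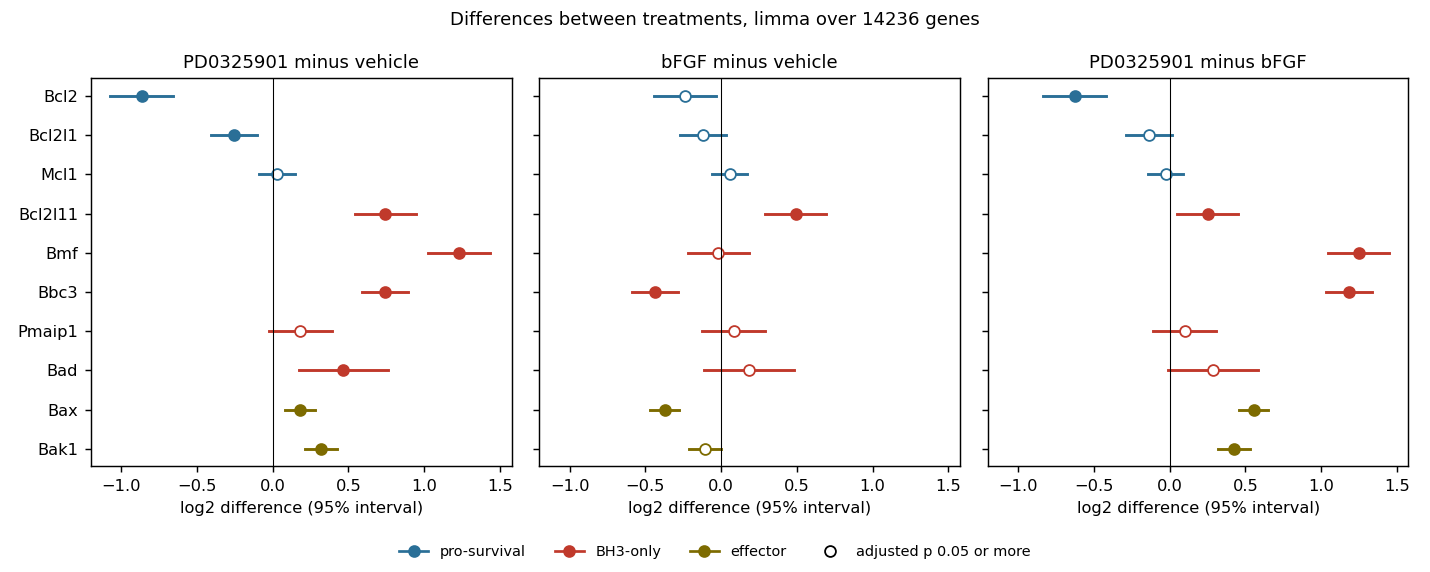
Difference of each gene, on its brightest detected probe, in the 3 comparisons (horizontal axis, log2 scale) with its 95% interval from limma. Colours give the role, and open points did not pass at an adjusted p under 0.05. Under PD0325901 the pro-survival genes lie at or left of 0.03 and the BH3-only genes and effectors right of 0, while under bFGF the roles mix.

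Other members of the family were taken from a list of 16, of which 12 were measured and tested. Under PD0325901 4 rose, 5 fell and 3 did not pass, or 75% called beside 53.4% of all genes (24.1% higher, 29.3% lower). The median was -0.12, against -0.04 for all tested genes. Among pro-survival relatives, Bcl2a1b, the A1 gene known from leukocytes, was at -0.44 and -0.20 with vehicle and -3.07 and -3.01 with the inhibitor, and fell by 2.72 ± 0.10 (6.60-fold, limma adjusted p = 1.71e-04). Bcl2a1b has near-identical copies that may share its signal, and the summed macrophage markers moved with it, from between 3.61 and 3.74 on the vehicle arrays to between 3.1 and 3.14 on the inhibitor arrays. With bFGF that sum was also lower, at 3.20 to 3.31, while Bcl2a1b lay at 0.14 and 0.04 and differed from vehicle by 0.41 ± 0.10 (adjusted p = 0.0523). Such a sum follows its brightest probe, here Lyz2. Under PD0325901 4 of the 8 tested macrophage markers fell and none rose, a share near the 53.4% of all genes. With bFGF Lyz2 fell by 0.67 and Fcer1g rose by 0.46, while the other markers did not pass. The part of macrophages in the fall of Bcl2a1b was not tested. Bcl2l10 fell by 1.37 ± 0.12 and Bcl2l2, which encodes Bcl-w, a survival factor in the testis, by 0.44 ± 0.04. All 3 pro-survival relatives thus fell.

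Of the other BH3-only genes, Hrk rose by 1.25 ± 0.11 (2.37-fold, limma adjusted p = 0.00121), from -3.66 and -3.92 to -2.51 and -2.58. Bid, which links death receptors to mitochondria, rose by 0.57 ± 0.04 and Bik fell by 0.29 ± 0.07. The mitophagy receptor genes Bnip3 and Bnip3l rose by 1.02 ± 0.05 and 0.42 ± 0.10. Bcl2l14 fell by 0.88 ± 0.06. The Bik call was lost without either inhibitor array (limma adjusted p = 0.118 and 0.0883), without vehicle replicate 1 (0.0756), with the array median (0.0692) and with the replicate block (0.0570), the Bnip3l call without any inhibitor or bFGF array (0.0518 to 0.0922), and the Bcl2l14 call with its probes averaged (0.0805). Bcl2l12, Bcl2l13 and Becn1 differed by -0.14, -0.11 and 0.02 and did not pass, though Bcl2l13 passed without vehicle replicate 2 (adjusted p = 0.0252) and Bcl2l12 with the stricter filter on background (0.0456) and the trended fit (0.0268). Against vehicle, bFGF gave calls for Bik, which rose by 1.17 ± 0.07 (2.24-fold, limma adjusted p = 0.00685), Bcl2l14, which rose by 0.53, and Bid, which rose by 0.36. These calls made up 25% of the 12, near the 19.9% of all genes. Without bFGF replicate 1, 1 of the 12 was called, and without bFGF replicate 2 none was.

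Downstream of the pore, 20 of 21 listed genes of caspase activation, mitochondrial release and inhibitors of apoptosis were tested. Under PD0325901 6 rose, 5 fell and 9 did not pass, a share near the 53.4% of all genes, and without either inhibitor array 6 were called in place of 11. Birc2, an inhibitor of apoptosis gene, rose by 0.37 ± 0.07 (limma adjusted p = 0.0125), a call lost without either inhibitor array (adjusted p = 0.0703 and 0.0533). Cycs, which encodes cytochrome c, fell by 0.72 ± 0.06 and Vdac2, a channel that holds Bak1, by 0.66 ± 0.05. Of 10 tested genes of the death receptor arm 5 were called, also near that share, and 4 of them fell, among them the receptor gene Tnfrsf1a (by 1.33 ± 0.04), and Tradd, an adaptor of that receptor, rose by 0.28. Fasl, counted as lower, was not well above background on the vehicle or inhibitor arrays.

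Of 23 genes for kinases, binding partners and ligases that act on Bcl2 proteins, 6 rose, 7 fell and 10 did not pass under PD0325901, a share near the 53.4% of all genes, with 7 called without either inhibitor array. Rps6ka1 and Rps6ka2, which encode RSK kinases, fell by 1.61 ± 0.06 (3.05-fold, limma adjusted p = 1.71e-04) and 0.72 ± 0.05. Pim3, a kinase that can phosphorylate Bad, rose by 0.60 ± 0.09 and Mapk3, which encodes ERK1, by 0.36 ± 0.04.

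Genes known as FOXO factors or their targets, other than the members, were called in 14 of 17 cases under PD0325901, 9 higher and 5 lower, with a median of 0.18, beside 53.4% of all genes called. The count was 10 without either inhibitor array. Fbxo32, an atrophy ubiquitin ligase gene, rose by 1.56 ± 0.07 (2.96-fold, limma adjusted p = 2.73e-04) and Sesn3, a sestrin, by 1.34 ± 0.05. Trib1 fell by 0.97 ± 0.04 and Foxo4 by 0.96 ± 0.07, the latter well above background on 5 of the 6 arrays. Genes known as p53 or its targets were called in 9 of 18 cases, 6 higher and 3 lower, a share below the 53.4% of all genes. Trp53inp1 and the cell cycle inhibitor gene Cdkn1a rose by 0.83 ± 0.04 and 0.52 ± 0.04, while Gdf15 fell by 3.68 ± 0.06 and the kinase gene Plk2 by 1.45 ± 0.06.

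Under bFGF the p53 list was called in 10 of 18 cases, all lower, with a median of -0.26 against 0.03 for all genes and 7.13% of all genes lower. Trp53inp1 fell by 0.50 ± 0.04 (limma adjusted p = 0.00994), Gdf15 by 0.46 ± 0.06 and Cdkn1a by 0.21 ± 0.04, the last call being lost without any 1 of the 6 arrays (adjusted p from 0.0735 to 0.148). Of the members known as p53 targets, which are outside that list, Bbc3 and Bax fell on the same arrays and Pmaip1 differed by 0.08 (adjusted p = 0.478). The count was 4 without bFGF replicate 1 and 0 without bFGF replicate 2. The FOXO list was called in 5 of 17 cases, 4 higher and 1 lower, and in 1 and 0 without those arrays. Of the other lists, 3 of 20 caspase and inhibitor genes, 1 of 10 death receptor genes and 1 of 23 kinase and partner genes were called under bFGF, and none of them without either bFGF array. The death receptor call was Fasl, which was well above background on the 2 bFGF arrays alone and was tested only through them. With the array median the calls were 1 higher and 5 lower, 1 higher and 4 lower, and 0 higher and 10 lower. The p53 list then had 15 lower calls and the FOXO list 3 higher and 4 lower.

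**Figure D4:**
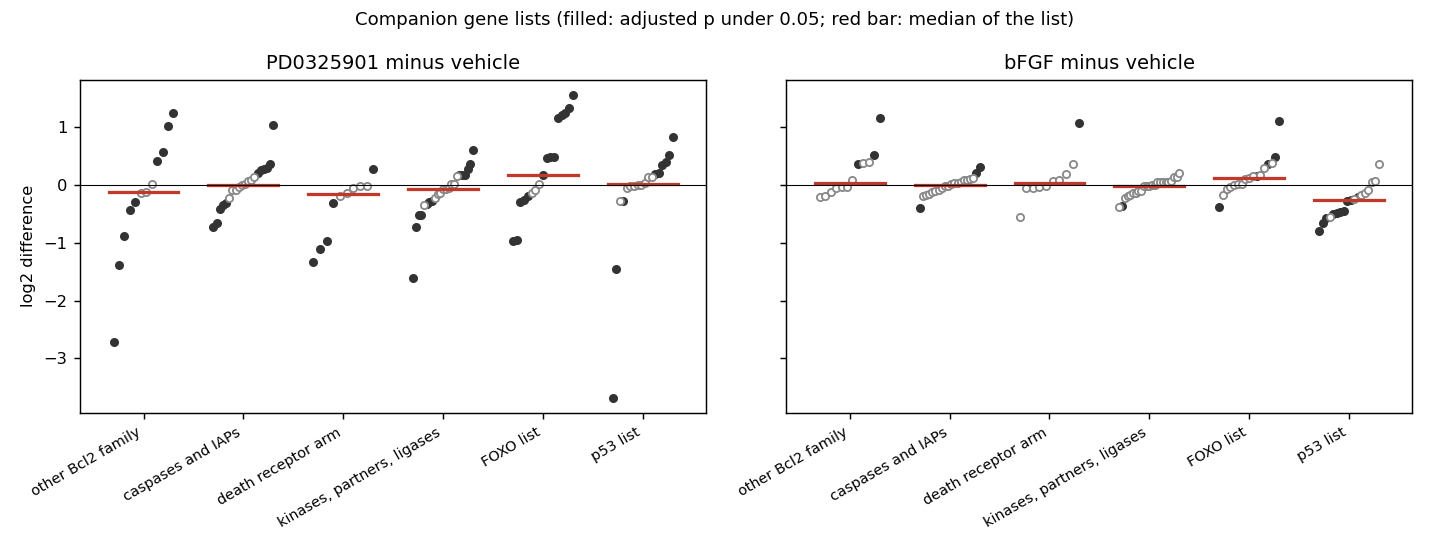
Log2 difference of each tested gene (vertical axis) in 6 lists around the family, for PD0325901 minus vehicle on the left and bFGF minus vehicle on the right. Filled points passed at an adjusted p under 0.05, open ones did not, and red bars are list medians. The p53 list has its median at -0.26 under bFGF and the FOXO list at 0.18 under PD0325901.

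For 4 members the tested genes with the nearest pattern over the 6 arrays were taken, by the distance between log2 values centred on each gene's own mean. Nearest to Bmf were Ccng2 (distance 0.050), a cyclin gene that stands in the FOXO list, Aph1b (0.094) and Ehbp1 (0.094). Ccng2 differed by 1.21 under PD0325901 and by 0.00 under bFGF. Nearest to Bcl2l11 were Dnaaf1 (0.103), Rgs2 (0.119) and Gpld1 (0.124), and nearest to Bcl2 were Cbln1 (0.108), Akap12 (0.122) and Cytip (0.125). Within a distance of 0.2 lay 23 genes for Bmf, 19 for Bcl2l11 and 40 for Bcl2. Mcl1, level across the arrays, had 1853 genes that near, led by Dph5, Ktn1 and Rbm19, so its nearest genes carry little information. These likenesses rest on 3 groups of 2 arrays and are a description only.

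**Figure D5:**
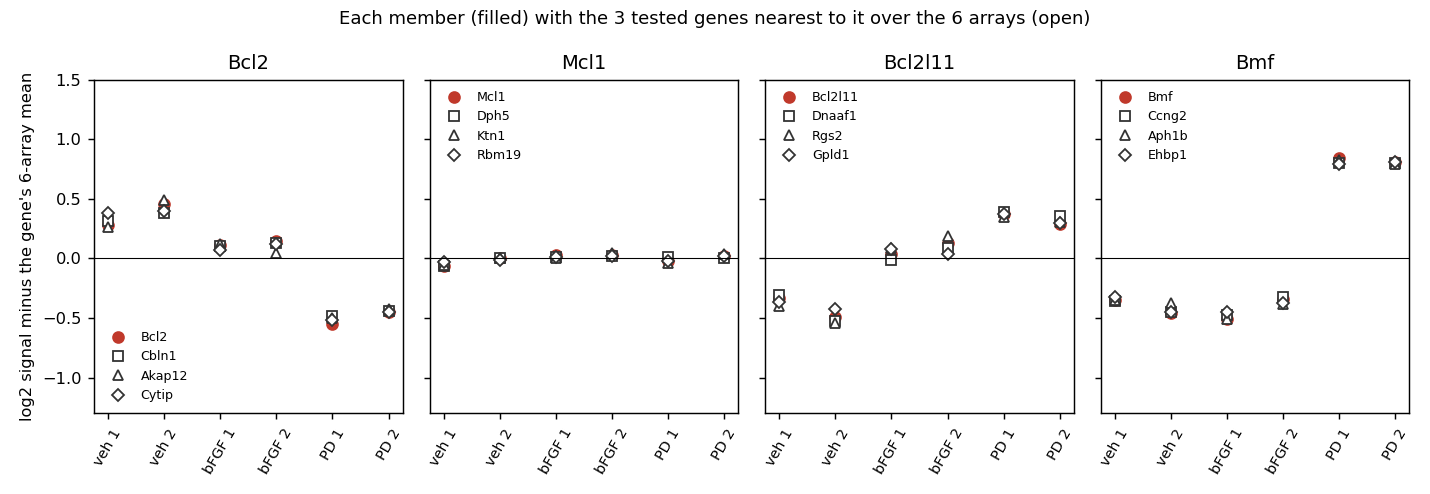
Level of 4 members (filled) and of the 3 tested genes nearest to each (open) on the 6 arrays, as log2 signal minus the gene's mean over the arrays (vertical axis). The genes nearest to Bmf rise on both PD0325901 arrays alone, those nearest to Bcl2l11 step up from vehicle to bFGF to PD0325901, and those nearest to Bcl2 step down.

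Summed markers of other cells moved with the treatments on these arrays, and each sum follows its brightest probes. Under PD0325901 24.1% of all genes were higher and 29.3% lower, and with bFGF 12.7% and 7.13%. The summed level of 11 germ cell markers was 3.94 to 4.13 with vehicle, 4.53 to 4.83 with bFGF and 4.29 to 4.30 with PD0325901. Its brightest probe, Ldhc, rose by 0.69 with bFGF and did not pass under PD0325901 (limma adjusted p = 0.186). Of the 11 markers 4 rose and 2 fell under PD0325901, while 7 rose and none fell with bFGF. The sum of 7 peritubular myoid markers went from 5.95 to 6.05 with vehicle to 6.52 on both inhibitor arrays, that of 7 fibroblast markers from 5.79 to 5.82 to between 6.05 and 6.10, and that of 6 endothelial markers from 0.33 to 0.37 to between -1.01 and -0.82. Under PD0325901 5 of the myoid markers rose and none fell, and 5 of the endothelial markers fell and none rose. Of the fibroblast markers 3 rose and Thy1 fell by 1.27. Of the 5 tested Leydig cell markers 2 fell under PD0325901 and none rose. Their sum went from 4.72 to 4.77 with vehicle to 4.49 on both inhibitor arrays. That of 8 macrophage markers, which follows its brightest probe, Lyz2, was 3.20 to 3.31 with bFGF. The sum of 14 Sertoli cell markers lay between 8.38 and 8.53 on all arrays, but such a sum follows its brightest probe, here Clu. Of the 14 genes 6 rose and 5 fell under PD0325901, with Gata1 higher by 1.91 and Fshr lower, at -1.22. Tested markers were well above background on all 6 arrays except Pecam1 (4 of 6), while Lhcgr of the Leydig list and Tek of the endothelial list were too dim to be tested. The part of these cells in the members' differences was not tested.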

How the data were processed

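Transcripts of 6 samples were measured on 1-colour (Cy3) Agilent arrays. Each scanner file gives a linear intensity per spot, background-subtracted and detrended within the array by Agilent Feature Extraction 9.5.3.1, per the file headers (9.5 per the submitters' processing notes). The log2 table that the authors deposited differs from these values, for 100% of probes within 0.001, only by constants per array and per probe. The medians of its columns were 0.0195 and 0.0179 (vehicle), 0.0052 and 0.0045 (bFGF), and -0.107 and -0.0124 (PD0325901). Its scaling lay between -0.0078 and 0.0058 of the 75th percentile, it was centred per probe in the scanner's direction, and it served as an alternative. A constant common to its arrays stays unknown.

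From 43379 non-control spots, log2 intensities were set relative to the 75th percentile of their array. Outlier-flagged spots were dropped, losing 83 of 41174 probes, spots of a probe were averaged, and no spot was saturated. The files' RefSeq accessions gave 23341 of 41091 probes a gene in the RefSeq table of GRCm38.p6. The arrays were designed on another build, so gene coordinates are left out, other than those of the promoter windows. A probe counted as detected where well above background on both arrays of a group (for probes with several spots, on at least 50% of spots), and the brightest detected probe stood for its gene. Tests used limma 3.58.1 in R 4.3.3 (3 residual degrees of freedom, threshold 0.05), after tests on simulated data. Within groups the arrays differed beyond the noise between spots (median variance ratio 1.80, 1.85 and 3.27 against 0.455 by chance over 245 probes of 10 spots), and each counted as 1 sample. The number of arrays limits precision (median SE 0.07).

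The members and all gene lists were chosen with earlier results of these data known. All 10 members are named with every probe. From each other list at most 2 rising and 2 falling genes with the largest called difference under PD0325901 are named, and every tested gene of the other family members. A gene that this rule would name is not reported here. Alternatives were other scalings, background correction, filters, probe rules, fits and left-out arrays. Normexp used the median spot signal (offset 50) in place of the mean signal planned. The planned comparison of protein sequences was not made.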

Additional observations from a re-analysis of the deposited data

How the results depend on the processing

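Over 18 alternatives for each member and comparison, 163 of 180 values kept direction and call for PD0325901 against vehicle, 155 of 180 for bFGF against vehicle and 159 of 180 for PD0325901 against bFGF. These alternatives overlap. Other fits and replicate blocks leave each difference as it is and bear only on the call. Leaving out an array of the third group gives the same fit as the 2 groups alone. Among called members the sign changed in 1 case, Bmf between PD0325901 and bFGF with probes averaged (-0.056). The other reversals were of values that had not passed. With normexp, Mcl1 (-0.0035) and Becn1 (-0.031) turned in PD0325901 against vehicle and Bmf (0.11) in bFGF against vehicle. With probes averaged, Mcl1 (-0.065) and Bmf (0.49, called at a limma adjusted p of 0.0362) turned in those comparisons. With the array median, Mcl1 (-0.082) and Pmaip1 (-0.055) turned under bFGF, and Bcl2l1 (0.10) and Mcl1 (0.21, limma adjusted p = 0.0112) between PD0325901 and bFGF. Without 1 array, differences from vehicle ranged under PD0325901 from -0.0030 to 0.062 for Mcl1, -0.238 to 0.018 for Bcl2l13 and -0.015 to 0.053 for Becn1, and under bFGF from -0.104 to 0.066 for Bmf and -0.013 to 0.178 for Pmaip1.

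Without 1 array, genes called ranged from 5092 to 7210 for PD0325901 against vehicle, from 0 to 1888 for bFGF against vehicle (0 without bFGF replicate 2, where limma gave 3711 at an unadjusted p under 0.05, and 560 without replicate 1) and from 6317 to 9235 for PD0325901 against bFGF. Members called ranged from 5 to 8, 0 to 3 and 5 to 8. In bFGF against vehicle, where 2829 genes and 3 members were called, the array median gave 5539 genes and 6 members, and a fit on those 2 groups alone gave 1152 genes and 1 member. With the replicate block 1439 genes were called there, 6949 for PD0325901 against vehicle and 8179 for PD0325901 against bFGF. Whether the replicate numbers pair the samples is not known: the deviations of same-numbered arrays correlated by -0.08 (vehicle with bFGF), 0.12 (vehicle with PD0325901) and -0.12 (bFGF with PD0325901). A crossed block with the bFGF numbers turned, added after seeing the data, gave 7202, 2091 and 8353 genes. Recounting the lists was also added then. A group left with 1 array is assumed to vary like the others. The cause of these changes was not tested, and each value rests on 2 arrays per group.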
